A study of Mus musculus with 6 samples.

Results

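The small leucine-rich proteoglycans are secreted core proteins of the extracellular matrix, and 8 of their genes were followed here: Dcn (decorin), Bgn (biglycan), Aspn (asporin), Lum (lumican), Fmod (fibromodulin), Prelp, Omd (osteomodulin) and Ogn (osteoglycin). Members were chosen by name, as every probe set whose annotation gives 1 gene symbol equal to one of these, which found 19 of the 45037 probe sets tested and 8 of 18193 genes. Expression was measured on 6 Affymetrix GeneChip mouse genome arrays, 3 of DFAT cells and 3 of AC. DFAT cells (dedifferentiated fat cells) are a proliferating line that was set up by ceiling culture, in which floating fat cells attach to the upper wall of a filled flask, from mature adipocytes of mice carrying a GFP transgene, and by their labels they had reached semiconfluence. AC are mature adipocytes taken from mouse fat tissue, and whether these mice carried the transgene is not given. The sex, age, strain and fat depot of the mice, and whether the line is 1 clone, are not stated in the labels or methods. The study refers to biological replicates, without saying whether these were separate animals, cultures or passages of the line, so each p-value measures only how far these arrays differ. The study profiled these cells to look for factors that differ between fat-derived and liver cells, and the liver cell arrays were not analysed here.

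Each of these proteins is a curved chain of leucine-rich repeats, and several bind the surface of collagen fibrils and limit how the fibrils grow sideways. Decorin and biglycan carry chondroitin or dermatan sulfate chains, asporin is their close relative without such a chain, fibromodulin, lumican and osteomodulin belong to a group that can carry keratan sulfate, and osteoglycin belongs to a separate class. Several of them also bind growth factors and receptors, decorin and biglycan best known among them. In fat tissue they are made mainly by stromal cells around the adipocytes, and decorin is often used as a marker of fibroblasts.

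The region around the start site is shown for the members with the clearest differences among the 6 of the 8 genes that the RefSeq promoter table (build GRCm38.p6) matched; Dcn and Lum were not among them. Each runs 5′ to 3′ on the gene's strand, with 250 bases before and 50 after the annotated start. Capitals mark matches, on either strand, to the letters CCAAT of the box with that name, to the TATA box read as TATAAA, to the GC box read as GGGCGG, and to the binding motifs of AP-1 read as TGANTCA, of TEAD read as GGAATG and of C/EBP read as TTGCNNAA, where N is any base. Bgn lies at chrX:73483351-73483650 on the plus strand, Aspn at chr13:49544193-49544492 on the plus strand, Ogn at chr13:49607765-49608064 on the plus strand and Prelp at chr1:133921352-133921651 on the minus strand.
Bgn: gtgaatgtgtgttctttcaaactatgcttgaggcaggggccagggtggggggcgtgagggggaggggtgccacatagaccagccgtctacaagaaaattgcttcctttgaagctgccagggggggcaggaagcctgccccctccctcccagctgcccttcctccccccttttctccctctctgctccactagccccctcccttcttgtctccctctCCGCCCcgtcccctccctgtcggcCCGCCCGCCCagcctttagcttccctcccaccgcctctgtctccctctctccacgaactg
Aspn: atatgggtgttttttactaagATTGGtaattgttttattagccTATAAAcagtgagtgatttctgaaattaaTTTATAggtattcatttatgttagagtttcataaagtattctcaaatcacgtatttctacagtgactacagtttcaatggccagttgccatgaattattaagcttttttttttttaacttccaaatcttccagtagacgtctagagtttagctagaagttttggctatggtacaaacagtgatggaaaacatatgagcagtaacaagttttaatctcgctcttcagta
Ogn: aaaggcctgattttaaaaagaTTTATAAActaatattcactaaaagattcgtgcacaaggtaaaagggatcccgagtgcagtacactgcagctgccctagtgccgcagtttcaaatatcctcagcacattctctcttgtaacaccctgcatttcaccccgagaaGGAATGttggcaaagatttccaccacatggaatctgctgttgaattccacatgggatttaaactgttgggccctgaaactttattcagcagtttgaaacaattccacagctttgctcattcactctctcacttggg
Prelp: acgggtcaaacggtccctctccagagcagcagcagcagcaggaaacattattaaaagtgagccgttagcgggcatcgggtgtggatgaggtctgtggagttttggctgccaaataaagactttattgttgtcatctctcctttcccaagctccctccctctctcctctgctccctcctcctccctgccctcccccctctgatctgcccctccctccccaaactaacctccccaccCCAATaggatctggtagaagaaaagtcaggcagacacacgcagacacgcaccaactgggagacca

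The Bgn region, from a gene that was higher in DFAT cells, was rich in GC (63.7%, against a median of 52.7% over all 32851 promoters of this length) and held 3 GC boxes, at -34, -10 and -6 from the start site, the last pair overlapping. The Aspn region, from the other gene that was higher, had a GC share of 31.0%, with TATA box letters at -207 and -178 and CCAAT letters at -229. In Ogn (42.3% GC) a pair of overlapping TATA matches began at -229 and -227 and a TEAD match at -86, and in Prelp (55.3% GC) a CCAAT match began at -15. The Fmod region (51.0% GC) had a C/EBP match at -125 and a CCAAT match at 35, and the Omd region (37.7% GC) had 0 matches. Over all promoters the share with a match was 13.6% for TATAAA, 37.4% for CCAAT, 35.7% for GGGCGG, 7.81% for TGANTCA, 14.7% for GGAATG and 10.8% for TTGCNNAA. The genes that were higher thus had no motif of the 6 in common, and no match to TGANTCA was found in any of the 6 regions.

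All values below are log2 RMA values, differences are DFAT minus AC, and means carry the SD over 3 arrays. Where a gene had several probe sets, the brightest on average stood for it, and limma was run on all 45037 probe sets, over which p-values were adjusted. The background level of an array, under which 95% of the probe sets of genes from unrelated tissues fell, lay between 5.57 and 5.82, and a gene at or under it on all 3 arrays is called at background in that group, with a fold given only as a bound from that level. Correlations between arrays across probe sets were 0.995 to 0.996 among DFAT cells and 0.991 between AC replicates 2 and 3, but 0.971 and 0.969 for AC replicate 1 with them, so results are also given without that array. The adipocyte markers fell in 10 of 10 genes, with a mean level of 6.16 to 6.22 on DFAT arrays and 12.75 to 13.01 on AC arrays. Markers of other cell types also differed: all 15 endothelial, 14 of 16 macrophage and 11 of 13 epithelial markers were lower in DFAT cells, and 13, 14 and 10 of each list were at background there, against 0, 2 and 1 in AC. Of 10 pericyte and smooth muscle markers 8 were lower and 2 higher, with 6 at background in DFAT cells and 1 in AC, and mean levels of 6.17 to 6.24 on DFAT arrays and 7.96 to 8.47 on AC arrays. The mean levels of the endothelial, macrophage and epithelial lists were 4.20 to 4.26, 4.14 to 4.26 and 4.53 to 4.72 on DFAT arrays and 7.69 to 9.59, 6.32 to 8.02 and 8.45 to 8.94 on AC arrays. In bulk samples fewer cells of a type and less RNA per cell cannot be told apart.

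Of the 8 genes, 2 were higher in DFAT cells (Bgn and Aspn), 5 were lower (Dcn, Lum, Prelp, Ogn and Fmod) and Omd did not pass the test. The share of all 18193 genes called was 46.4%, with 22.6% higher and 23.8% lower. A call of at least 4-fold was made for 5 of the 8, 2 higher and 3 lower, where 11.4% of all genes had one. The groups did not overlap in 7 of the 8, against 60.0% of all genes. The median difference of the 8 was -1.38, beside -0.10 for all genes. In DFAT cells 4 of the 8 were at background (Dcn, Lum, Prelp and Fmod), and in AC 1 was (Fmod), so that 7 were above it in at least 1 group. The counts were again 2 higher and 5 lower without AC replicate 1, but 4 were lower without AC replicate 2, AC replicate 3 or DFAT replicate 3, and 3 were higher and 3 lower with arrays centred on the hybridization controls.

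**Figure D1:**
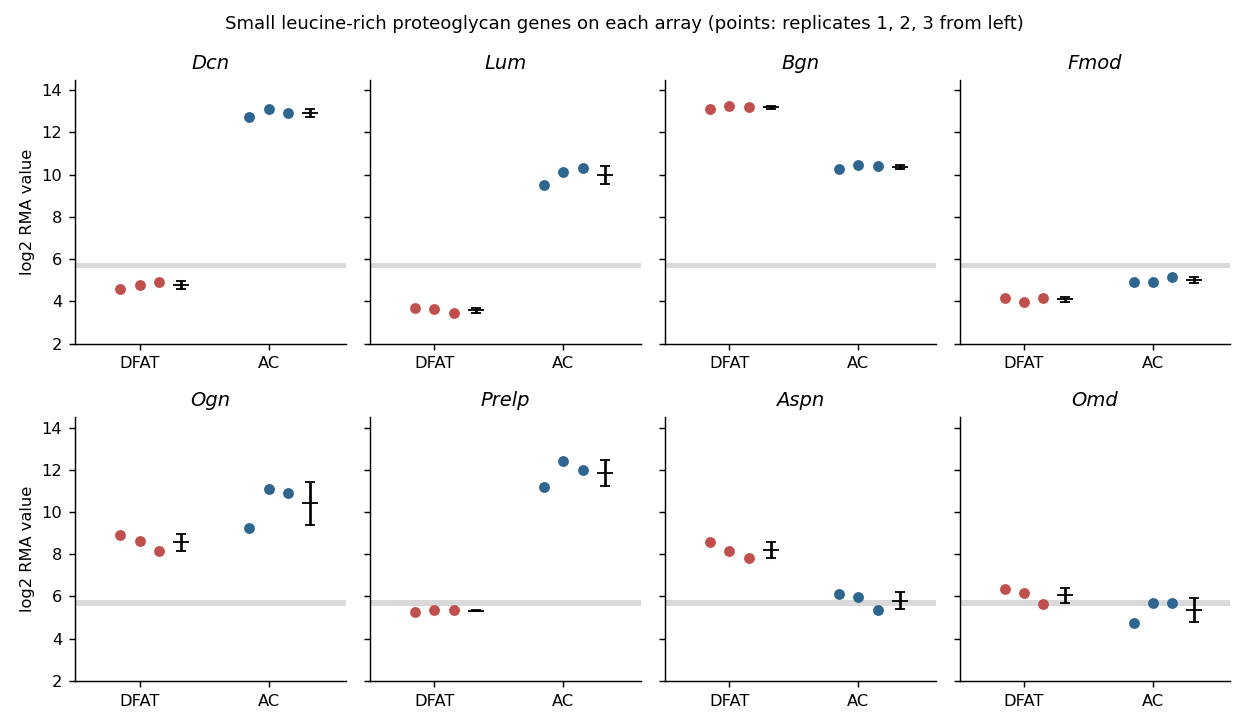
Log2 RMA value (vertical axis) of each of the 8 genes on the 3 DFAT arrays (red, left) and the 3 AC arrays (blue, right), with replicates 1 to 3 from left, the mean and SD beside them, and the range of the background level over arrays as a grey band. Dcn, Lum and Prelp lie under the band in DFAT cells and far above it in AC, Bgn is above it in both groups and higher in DFAT cells, and Fmod is under it in both.

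Among the decorin-type members, Dcn showed the largest difference of the 8. Decorin binds collagen fibrils and sequesters TGF-beta. Its probe set 1449368_at read 4.59, 4.79 and 4.93 on the DFAT arrays, against 12.71, 13.10 and 12.92 on the AC arrays. Every DFAT array was at background and every AC array was far above it. The difference was -8.14 (95% CI -8.51 to -7.77, adjusted p = 5.40e-08, limma), and from the background level Dcn was at least 147-fold lower in DFAT cells. Its other probe set, 1441506_at, was at background in both groups and did not pass the test (difference -0.19, 95% CI -0.78 to 0.39, adjusted p = 0.598), so the call rests on 1 of its 2 probe sets.

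Bgn went the other way. Biglycan is the closest relative of decorin in sequence and, when released from the matrix, a ligand of Toll-like receptors. The probe set 1416405_at read 13.09, 13.27 and 13.21 in DFAT cells, against 10.28, 10.47 and 10.41 in AC. Both groups were well above background, the arrays within a group lay close together, and the groups were far apart. Bgn was 6.98-fold higher in DFAT cells (difference 2.80, 95% CI 2.50 to 3.10, adjusted p = 1.60e-06, limma). The other 2 probe sets gave 2.89 and 3.20, also called higher.

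Aspn, whose protein binds collagen and TGF-beta and is known from cartilage and periodontal ligament, was the other gene that was higher. It read 8.59, 8.15 and 7.84 in DFAT cells (1416652_at), against 6.10, 5.95 and 5.37 in AC. The lowest DFAT array was above the highest AC array, and the AC arrays lay around the background level, above it on 2 of 3. The difference was 2.39 (95% CI 1.81 to 2.97, adjusted p = 0.000156, limma), or 5.23-fold. The second probe set, 1448421_s_at, read 7.85, 7.11 and 6.80 in DFAT cells and 4.61, 5.05 and 5.10 in AC, where it was at background, and was at least 3.09-fold higher in DFAT cells (adjusted p = 0.000289).

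Of the fibromodulin and lumican group, Lum, Prelp and Fmod were lower in DFAT cells and at background there, and Omd was not called. Lumican sets fibril spacing in cornea and skin. Lum (1423607_at) read 3.67, 3.63 and 3.43 in DFAT cells, against 9.50, 10.15 and 10.31 in AC. The DFAT arrays were all at background, and AC replicate 1 was the lowest of its group. The difference was -6.41 (95% CI -6.91 to -5.90, adjusted p = 3.66e-07, limma), at least 19.3-fold lower from the background level.

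Prelp, whose protein anchors basement membranes to the connective tissue beneath, fell as clearly. The probe set 1416321_s_at read 5.28, 5.36 and 5.36 in DFAT cells, against 11.21, 12.40 and 11.97 in AC. DFAT arrays were at background and AC arrays high, again with replicate 1 the lowest. The difference was -6.53 (95% CI -7.17 to -5.89, adjusted p = 1.03e-06, limma), at least 70.9-fold lower. The second probe set, 1416322_at, gave -4.12 (95% CI -4.82 to -3.41) and was at least 9.78-fold lower.

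Fmod, which guides collagen assembly in tendon, has 6 probe sets on the array, and all of them were at background in both groups. The brightest, 1415939_at, read 4.17, 3.97 and 4.16 in DFAT cells, against 4.94, 4.93 and 5.17 in AC. It passed the test (difference -0.92, 95% CI -1.24 to -0.59, adjusted p = 0.00117, limma), but values under the background level carry no fold. Of the other 5 probe sets, 3 were called lower and 2 were not called, with differences between -2.00 and -0.40. Set to the background level, its difference was 0.08 (adjusted p = 0.345), so the call ended.

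Omd, whose protein is found in mineralised matrix, was near the background level in both groups. Its only probe set read 6.34, 6.15 and 5.65 in DFAT cells, against 4.72, 5.68 and 5.71 in AC. The groups overlapped, and 2 of 3 arrays were above background in each. The difference of 0.68 did not pass the test (95% CI -0.01 to 1.37, adjusted p = 0.113, limma), and this interval includes more than a doubling.

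Ogn (osteoglycin, also called mimecan) was above background on every array. The probe set 1419663_at read 8.93, 8.63 and 8.14 in DFAT cells, against 9.24, 11.09 and 10.89 in AC. The groups did not overlap, but AC replicate 1 lay much nearer to the DFAT arrays than to the other AC arrays. Ogn was 3.57-fold lower in DFAT cells (difference -1.84, 95% CI -2.92 to -0.76, adjusted p = 0.0154, limma), and its other probe set gave -1.74 (adjusted p = 0.0199). Without AC replicate 1 the difference was -2.42 (adjusted p = 6.56e-05), while without AC replicate 2, AC replicate 3 or DFAT replicate 3 the adjusted p was 0.0528, 0.0616 or 0.0624, and the call was lost.

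**Figure D2:**
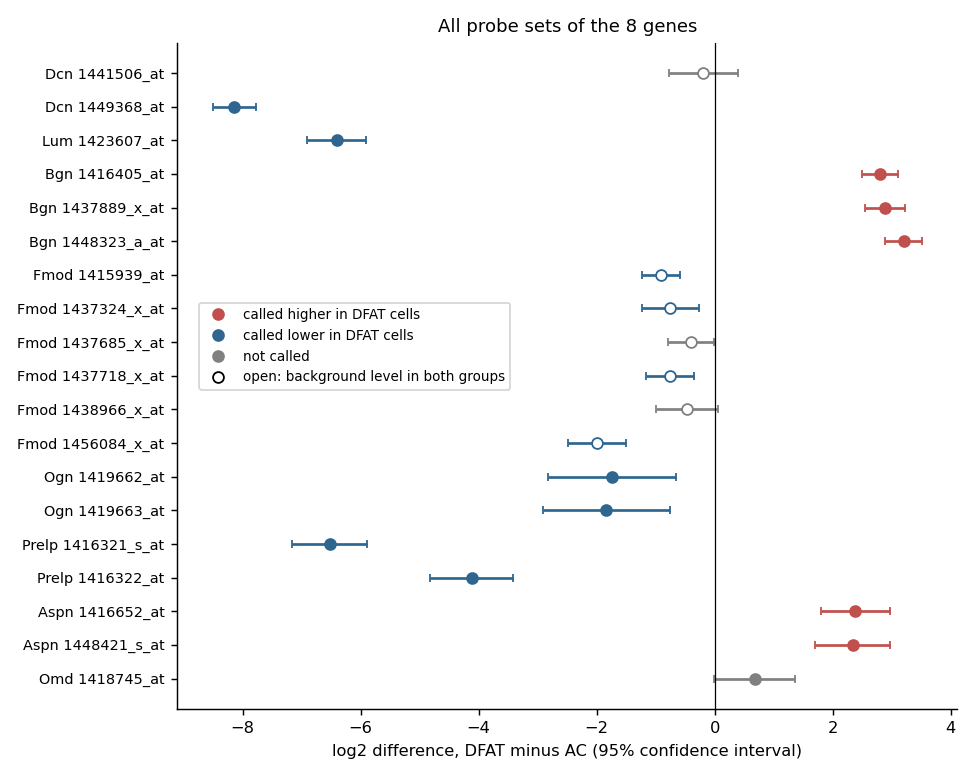
Log2 difference, DFAT minus AC (horizontal axis), with its 95% confidence interval for each of the 19 probe sets, red where called higher in DFAT cells, blue where called lower and grey where not called. Open points are at background in both groups. The 3 Bgn and 2 Aspn probe sets lie right of 0, and the Fmod probe sets and the second Dcn probe set are open.

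By probe set, 5 of the 19 were higher in DFAT cells, 10 were lower and 4 were not called. Over all probe sets 38.4% were called, 20.3% higher and 18.1% lower. At least 4-fold, 5 were higher and 4 lower, where the shares over all probe sets were 3.86% and 4.45%. The groups did not overlap in 16 of the 19, against 51.9% of all probe sets. No gene had probe sets called in opposite directions. Of the 19, 7 were at background in both groups, namely the 6 of Fmod and 1 of Dcn.

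Of the 11 further genes of the family, 9 were measured, and 5 were lower, 0 higher and 4 not called, with a median difference of -0.64, and 2 were lower with arrays centred on the hybridization controls. Of these 9, 7 were at background in both groups: Kera, the corneal keratocan, Epyc of cartilage, Optc of the eye, Ecm2, Chad, Nyx and Nepn, so the calls of Epyc, Ecm2 and Nepn are of values under that level. Podn alone was above background in both, at 6.45 ± 0.15 in DFAT cells and 7.67 ± 0.33 in AC (difference -1.22, adjusted p = 0.00137, limma). Chadl was at background in DFAT cells (5.33 ± 0.18) and above it in AC (6.11 ± 0.33), at least 1.31-fold lower.

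Most of these genes lie in clusters along the chromosome. In the RefSeq order of protein-coding genes, Dcn and Lum stand side by side on chromosome 10, next to Kera and Epyc. Dcn and Lum were both lower in DFAT cells, while Kera and Epyc were at background in both groups. On chromosome 13 the order is Ecm2, Aspn, Omd, Ogn, and Aspn was higher in DFAT cells, Omd was not called and Ogn was lower. On chromosome 1, Prelp stands between Optc and Fmod, and of these only Prelp was above background in AC. Bgn stands apart from the other members, on chromosome X.

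The 3 members on chromosome 13 had in common how they varied among the DFAT arrays. Ogn, Aspn and Omd were each highest in DFAT replicate 1 and lowest in DFAT replicate 3, over ranges of 0.79, 0.75 and 0.68. The DFAT arrays of the other 5 members spanned 0.08 to 0.35. Dcn, Lum, Prelp and Fmod were at background on these arrays, so only Bgn (0.17) compares above that level. Among the 9961 genes above background on at least 1 DFAT array, the median range was 0.15 and the 95th percentile 0.40. A range at least as wide as that of Omd was found for 43 of these genes (0.432%), and 10 of the 43 had the same highest and lowest array, among them these 3. Of all 9961 genes, with no limit on the range, 1764 (17.7%) had that highest and lowest array. The other 7 were Scai, Pigh, Ccdc122, Cyria, Slc10a6, Hp and Enox2. This limit was set after the values were seen, so the counts are a description. In AC, replicate 1 was the lowest array for Ogn and Omd and the highest for Aspn by its brighter probe set. The second Aspn probe set was at background in AC and lowest on replicate 1 (4.61, against 5.05 and 5.10). Whether the 3 genes moved together in AC is thus not settled.

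For 7 of the 8 genes AC replicate 1 read lower than AC replicates 2 and 3 averaged. The gap was -1.75 for Ogn, -0.98 for Prelp, -0.97 for Omd, -0.72 for Lum, -0.30 for Dcn, -0.16 for Bgn and -0.11 for Fmod, and Aspn was 0.44 above. The second Aspn probe set, at background in AC, was instead lowest on that array. Over all genes 59.2% were below, with a median gap of -0.09, beside -0.51 for the 8. The macrophage markers moved the same way on that array (15 of 16 below, mean level 6.32 against 7.91 and 8.02), as did 14 of 17 stromal fibroblast markers (mean level 8.22, the lowest AC array), while the endothelial markers moved the other way (0 of 15 below, 9.59 against 7.85 and 7.69), as did most pericyte and smooth muscle markers (2 of 10 below, 8.47 against 7.96 and 7.99) and most epithelial markers (4 of 13 below, 8.94 against 8.45 and 8.48). Of 10 adipocyte markers, 9 were also below on that array (mean level 12.75 against 13.01 and 12.96, median gap -0.14). The part of these cell types in the differences between DFAT cells and AC was not tested. Without that array Dcn, Lum, Prelp, Bgn, Aspn, Fmod and Ogn kept their calls, and Omd was again not called.

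**Figure D3:**
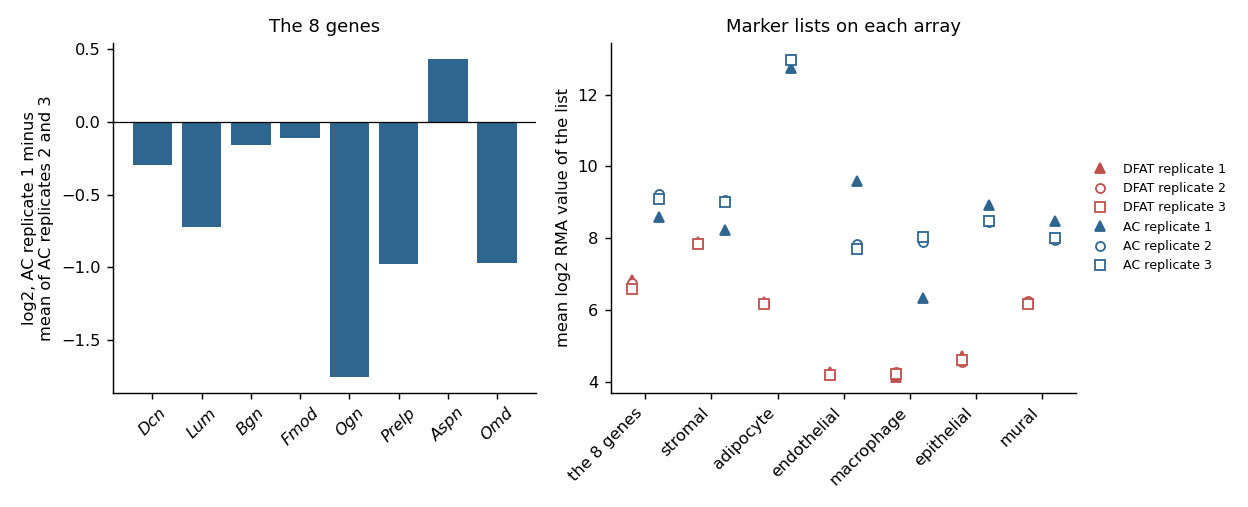
Left, log2 value on AC replicate 1 minus the mean of AC replicates 2 and 3 for each of the 8 genes, as bars from 0. Right, mean log2 RMA value of the 8 genes and of 6 marker lists on each DFAT array (red) and AC array (blue), with replicate 1 as filled triangles. Ogn has the widest gap (-1.75) and only Aspn is above 0. The macrophage list is lower and the endothelial list higher on AC replicate 1 than on the other AC arrays.

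The stromal fibroblast markers, which include genes usually found together with Dcn and Lum in fat tissue, were called in both directions. Of 17 measured, 5 were higher in DFAT cells, 8 lower and 4 not called, with a median difference of -0.10, which turned positive (0.03 and 0.36) with arrays centred on their medians or on the hybridization controls. In DFAT cells 6 of the 17 were at background, and in AC 1 was. Thy1 was 12.20 ± 0.05 in DFAT cells and 7.25 ± 0.40 in AC, and Smoc2 was 10.68 ± 0.07 in DFAT cells and 6.87 ± 0.95 in AC. Efemp1 was at background in DFAT cells (3.16 ± 0.32) and 10.19 ± 0.72 in AC, and Cd34 likewise, at 3.19 ± 0.09 in DFAT cells and 8.24 ± 0.58 in AC. The mean over the list was 7.83 to 7.91 on the DFAT arrays and 8.22 to 9.06 on the AC arrays. Mesothelial markers were at background in all 9 genes in both groups, and 6 of 7 skeletal muscle genes were too. Of 7 genes of bone, cartilage and tendon, tissues where Omd, Aspn and Fmod are best known, 6 were at background in DFAT cells and 4 in AC.

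**Figure D4:**
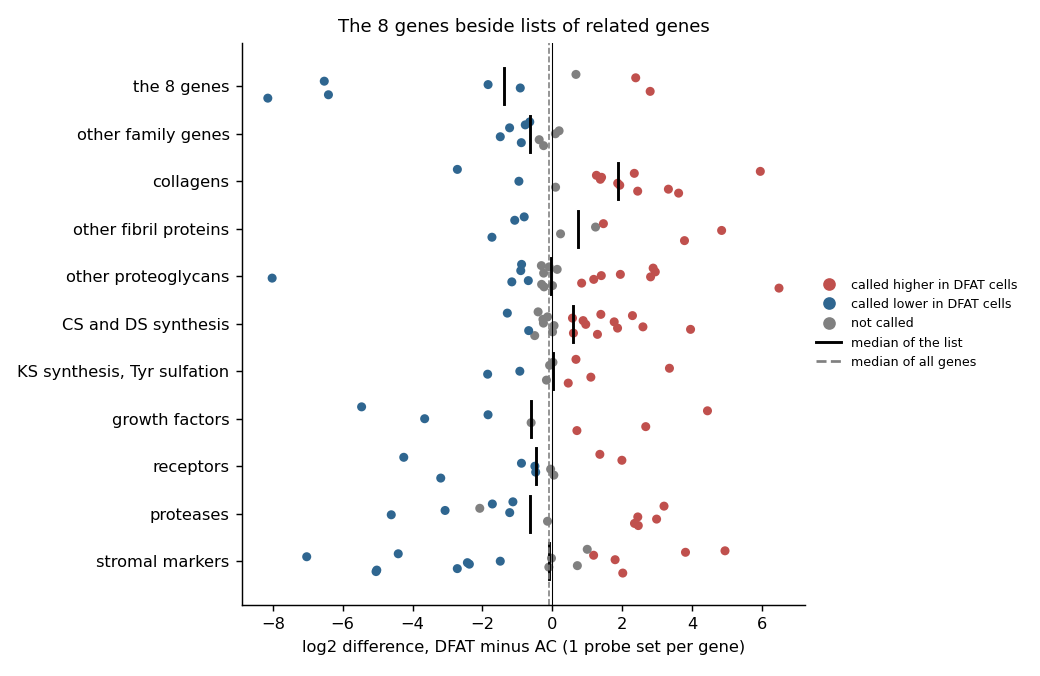
Log2 difference, DFAT minus AC (horizontal axis), of each gene in the 8 members and 10 related lists, with 1 point per gene, red where called higher in DFAT cells, blue where called lower and grey where not called. Black bars are list medians and the dashed line is the median of all genes (-0.10). The collagens lie mostly to the right (median 1.87), while the 8 members spread from -8.14 to 2.80.

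The collagens moved mostly one way. Of 13 genes of fibrillar, fibril-surface and VI-type collagens, 10 were higher in DFAT cells, 2 lower and 1 not called (median 1.87), and 10 were higher under every centring run. Among the higher ones, Col11a1 was at background in both groups. Col12a1, a collagen of the fibril surface, was 10.95 ± 0.03 in DFAT cells and at background in AC (5.00 ± 0.45), at least 40.0-fold higher. Col14a1, its relative, ran the other way: it was at background in DFAT cells (4.04 ± 0.19) and 6.75 ± 0.57 in AC, at least 2.06-fold lower. Col3a1 did not pass the test, at 12.85 ± 0.07 in DFAT cells and 12.76 ± 0.17 in AC. Of 8 other fibril proteins, 3 were higher (among them Tnc, by 4.85, and Fn1, by 3.78), 3 lower (among them Tnxb at -1.73 and Eln at -1.07) and 2 not called, while 4 were higher and 1 lower relative to the hybridization controls.

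The enzymes that build the sugar chains were also read. Of 20 genes for chondroitin and dermatan sulfate synthesis, 11 were higher in DFAT cells, 2 lower and 7 not called (median 0.59). The leading genes were Csgalnact1, which starts the chondroitin chain, at 10.46 ± 0.10 in DFAT cells and 6.50 ± 0.06 in AC, and Chsy1, which lengthens it, at 10.54 ± 0.10 in DFAT cells and 7.94 ± 0.85 in AC. The 2 lower ones were Chst15 (difference -1.29) and Fam20b (-0.68), and with arrays centred on reference genes the split was 9 higher and 7 lower. Of 9 genes for keratan sulfate synthesis and tyrosine sulfation, 4 were higher, 2 lower and 3 not called (median 0.02), which turned to 2 higher and 4 lower (median -0.37) with that centring. Among the lower ones, B4galt4 (difference -1.85) was at background in both groups. The sulfotransferase Chst2 was 7.49 ± 0.06 in DFAT cells and at background in AC (4.13 ± 0.50), at least 3.63-fold higher, and Chst1, the keratan sulfate sulfotransferase, was 10.08 ± 0.04 in DFAT cells and 11.01 ± 0.01 in AC.

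Partners that bind the family were split. Among 7 growth factors, 3 were higher in DFAT cells (Ccn2 by 4.44, Tgfb2 by 2.68 and Tgfb1 by 0.71), 3 were lower (Igf1, Bmp2 and Bmp4) and Tgfb3 was not called, while centred on reference genes 2 were higher and 4 lower. Bmp2 and Bmp4 were at background in DFAT cells, at least 1.74-fold and 1.11-fold lower. In AC, Bmp4 was above background on 1 of 3 arrays. Igf1 was 5.97 ± 0.20 in DFAT cells and 11.42 ± 0.10 in AC. Among 9 receptors, Igf1r (1.99) and Lrp1 (1.36), an endocytic receptor for decorin, were higher and 5 were lower, among them Kdr (-4.25) and Tlr2, with 2 lower relative to the hybridization controls. Tlr2, a receptor for free biglycan, was at background in DFAT cells (3.92 ± 0.21) and 7.11 ± 1.06 in AC, while Tlr4 was 6.96 ± 0.04 in DFAT cells and 6.92 ± 0.16 in AC and did not pass the test (adjusted p = 0.827, limma). Tlr2 is also expressed by macrophages, and Kdr by endothelial cells, whose markers differed as given above.

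Among 12 proteases and their enhancer, 5 were higher in DFAT cells and 5 lower, with 2 not called (median -0.63), while 7 were lower centred on reference genes and 3 relative to the hybridization controls (medians -1.02 and -0.17). Bmp1, which cleaves the biglycan propeptide, was 9.81 ± 0.03 in DFAT cells and 7.35 ± 0.21 in AC, and Pcolce, the enhancer of procollagen cleavage, was 12.85 ± 0.07 in DFAT cells and 9.87 ± 0.19 in AC. Mmp14, a membrane-bound collagenase, was higher by 3.20, and the lower ones included Mmp3 and Mmp12, both at background in DFAT cells and at least 4.84-fold and 1.26-fold lower. Of 20 other proteoglycan core proteins, 8 were higher, 5 lower and 7 not called (median -0.04). Relative to the hybridization controls 8 were higher and 1 lower (median 0.42), and centred on reference genes 6 were higher and 9 lower (median -0.43). Vcan, the large hyaluronan-binding versican, was 11.03 ± 0.12 in DFAT cells and at background in AC (4.54 ± 0.82), at least 42.2-fold higher. Srgn, the granule proteoglycan serglycin of blood cells, was at background in DFAT cells (3.53 ± 0.18) and 11.55 ± 0.13 in AC, at least 57.1-fold lower.

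For each member the gene with the most similar profile over the 6 arrays was found by the smallest root mean square difference after each gene was centred on its own mean. For Dcn it was Adig, an adipocyte gene (0.19 log2 units, difference -8.43), and for Lum it was Serpina3n (0.12, difference -6.46). The nearest gene was Sucnr1, the succinate receptor, for Prelp (0.13, -6.61) and Mogat2, a monoacylglycerol acyltransferase, for Ogn (0.11, -1.76). For Bgn it was Capg, an actin-capping protein (0.05, 2.84), and for Aspn it was Zfp52 (0.18, 2.25). Fmod was nearest to Rufy1 (0.05) and Omd to Bbip1 (0.14). Except for Omd, whose groups overlapped, the group difference makes up most of each profile, so a near match is a gene with a similar difference. Second nearest came Fosb for Dcn, Acaa1b for Lum, Klhl13 for Prelp, Pacc1 for Ogn, Snrpf for Bgn, Cdk6 for Aspn, Bbs2 for Fmod and Ccnc for Omd.

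The array values give differences in level relative to the other probe sets, so the choice of what to hold equal bears on the smaller differences. Centring on reference genes moved the median over all probe sets to -0.45, against -0.06 as deposited, and centring on the hybridization controls moved it to 0.40, and the share of calls that were higher was 22.3% and 78.5%, against 52.9%. The reference genes themselves differed between the groups. Of 11 measured, 6 were higher in DFAT cells, 2 lower and 3 not called, with differences from -2.20 (B2m) to 2.24 (Tfrc). Dcn, Lum, Prelp, Bgn and Aspn passed the test in the same direction under every scaling run. Relative to the hybridization controls Ogn (-1.37, adjusted p = 0.0637) and Fmod (-0.45, adjusted p = 0.205) were not called and Omd was called higher (1.14, adjusted p = 0.0432), so that 3 members were higher and 3 lower.

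**Figure D5:**
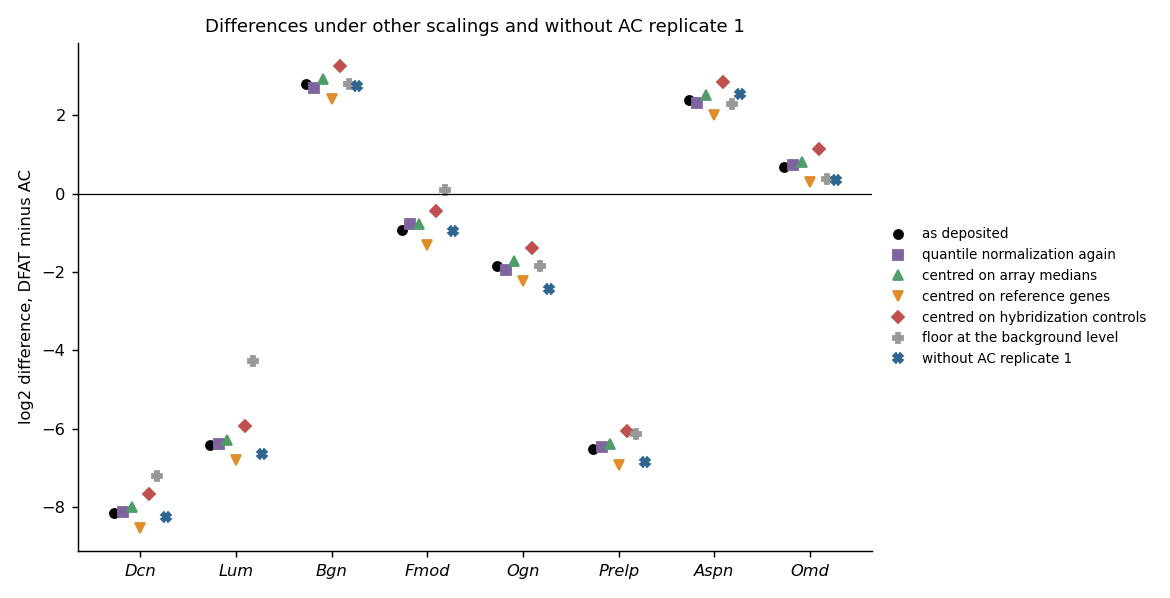
Log2 difference, DFAT minus AC (vertical axis), of each of the 8 genes as deposited (black circles), under 4 other scalings, with a floor at the background level, and without AC replicate 1 (blue crosses). Dcn, Lum and Prelp stay under -4 and Bgn and Aspn stay near or above 2 throughout, while Fmod crosses 0 with the floor (0.08).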

How the data were processed

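The authors hybridised total RNA of DFAT cells and AC, 3 samples each, to Affymetrix mouse genome arrays and deposited log2 expression values after RMA, which corrects background, normalizes between arrays and summarises probes (no version is named). The study's methods and the sample labels name different labelling kits. Scanner values and detection calls were not used here. The number of arrays limits the precision.

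Groups came from the sample labels. Names came from the annotation of the platform: 34945 of 45037 had 1 symbol, 932 had several and 9160 had none, and no probe set with several symbols included a member. The 64 control probe sets were left out. The test of DFAT cells against AC was limma 3.58.1 under R 4.3.3 (linear fit, then eBayes, two-sided, no filter, Benjamini-Hochberg over 45037 probe sets, threshold 0.05), and tables were made with Python 3.11.15. The 4-fold limit is a log2 difference of 2 or more. With 3 arrays against 3, the smallest p of an exact permutation test is 0.1, so none was run. The background level was taken per array from 94 probe sets of 69 genes of tissues other than fat. On simulated data, 200 of 45037 probe sets were changed. The step recovered 39% of those changed by 1 and 89% of those changed by 2 on the log2 scale, with 9 false calls. In the real data 38.4% of probe sets were called, so these shares do not give the power there.

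The members, the gene lists and the tests were chosen with earlier results of these data known. All members and family genes are named, with the 2 nearest genes of each member and up to 2 called genes of each related list in each direction, and a few more chosen after their values were seen. Lists are described by counts and medians. Alternatives were other normalizations and centrings, a floor, a filter on dim probe sets, other variance settings and tests, other probe sets, a replicate block and leaving out each array. Promoter sequences and gene order came from RefSeq tables of GRCm38.p6, and the array values name no build.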

Additional observations from a re-analysis of the deposited data

How the results depend on the processing

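Dcn, Lum, Prelp, Bgn and Aspn kept their direction and passed the test under all 19 alternatives run on each. The count of members higher in DFAT cells stayed between 2 and 3 and was 2 with any 1 array left out, and the count of members lower was 4 to 5 with any 1 array left out. It was 3 with arrays centred on the hybridization controls and 3 by a fold rule of at least 4-fold with no test. The study's results give that limit, for liver cells against AC or DFAT cells, and its methods word the limit differently. Over all probe sets, 6051 were higher and 21069 lower centred on reference genes, 3405 lower relative to the hybridization controls, and 5021 lower once values under the background level were raised to it, while the fold rule gave 1739 higher and 2005 lower. Leaving out 1 array gave 7279 to 10674 higher and 5881 to 10324 lower. The difference of Fmod turned to 0.0828 with that floor at the background level, where both groups sit at the floor and the value is the difference of the floor levels, and Fmod was left without a value when dim probe sets were removed. Ogn was not called by Student's t-test adjusted by Benjamini-Hochberg (adjusted p = 0.108). The study names that test for its other assays and not for the arrays. The mean over both Dcn probe sets gave -4.17, as 1 of them was at background. With the 99th percentile as the background level, 3 members were at background in AC. With the 90th percentile, 3 members were at background in DFAT cells, as Prelp was then above it there.

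With the replicate number as a block, 2 members were higher and 5 lower, and 8639 of all probe sets were higher and 7384 lower. The block changed no call among the 8 genes (Ogn, adjusted p = 0.0191, limma). Deviations of samples with the same number correlated at -0.03 to 0.01, so the numbers were not taken to pair the samples.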
